A study of Mus musculus with 4 samples.

Results

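Non-dividing CD4 T cells made up 118 of 33698 cells in single-cell RNA libraries of the fracture callus, the repair tissue that bridges a broken bone. They came from male C57BL/6J mice aged 20 months with a tibial fracture, taken 7 days after treatment. Both groups received a microgel, so each carries the material: 2 libraries came from the adenosine microgel and 2 from the control microgel. The labels name bone marrow as the tissue while describing callus cells, and they leave unsaid whether both libraries of a treatment are from different animals. Every p-value below therefore measures only the spread between libraries, which may be technical. Viable cells had been sorted with propidium iodide after red blood cell lysis, which selects no T cell subset. Libraries are called adenosine 1, adenosine 2, control 1 and control 2 by the numbers in their titles, and paired values run from number 1 to number 2.

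Members were chosen by the unique molecular identifiers of each cell (UMIs, the molecules counted per gene). A member had at least 200 genes and under 10% of UMIs from mitochondrially encoded genes, at least 2 UMIs summed over the CD3 chains Cd3e, Cd3d and Cd3g, and at least 1 UMI of the co-receptor Cd4. It had none of the CD8 chains Cd8a and Cd8b1, none of the macrophage receptor Csf1r, and under 3 summed UMIs of the division genes Mki67 and Top2a. These genes chose the members and are given only as a description. The members numbered 37 and 52 in the adenosine libraries and 24 and 5 in the control libraries, out of 8860 and 8768 cells against 9427 and 6643 cells. Of the members, 52 had a single Cd4 UMI and the highest had 7, and 11 had exactly 2 CD3 UMIs. Just outside the rule lay 8 cells with a single CD3 UMI, 44 with none, 13 with a Csf1r UMI and 7 dividing cells. A larger number, 324 cells, met the rest of the rule but had neither a Cd4 nor a CD8 UMI. They numbered 108 and 98 with adenosine and 90 and 28 with control. How many of them were CD4 T cells was not tested.

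CD4 T cells recognise peptides on MHC class II through the T cell receptor and steer other immune cells. They do so with surface ligands such as CD40 ligand, which activates B cells and dendritic cells, and with cytokines. Naive cells recirculate through lymphoid organs by way of homing receptors such as CCR7, effector and memory cells enter tissues, and regulatory cells, directed by the transcription factor FOXP3, restrain immune responses. In bone, T cells can make RANK ligand and TNF, which promote the formation of osteoclasts. Adenosine acts on T cells mainly through the receptor encoded by Adora2a, which raises cyclic AMP and dampens activation.

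The libraries held 59503381 and 68117846 UMIs with adenosine and 58453640 and 32277757 UMIs with control. Adenosine 2 stood apart from the rest, since 1057 of its cells met the T cell part of the rule, against 224 in adenosine 1 and 185 and 50 in the control libraries. The members had a median of 3855 and 5654.5 UMIs in the adenosine libraries and 5330 and 4304 UMIs in the control libraries. Pairs of libraries shared 11 to 27 barcodes, of which 1 was a member barcode, in adenosine 2 and control 1. A score for doublets (droplets that hold more than 1 cell) marked 10 of the 118 members, which were kept. A further measure, over 100 UMIs of the neutrophil genes S100a8 and S100a9 or of antibody genes in 1 cell, met 2, 1 and 1 members of adenosine 1, adenosine 2 and control 1 and none of control 2. These 4 heavy members gave 30.9% of all member UMIs in adenosine 1, 2.28% in adenosine 2 and 15.8% in control 1. Gene results that rest on them are given with and without them, and list counts and medians with them. Where CD8 T cells entered a comparison, leaving out the heavy members also left out the CD8 T cells above the same limit.

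The T cell part of the label held against markers that the rule did not use. Trac, the constant region of the T cell receptor alpha chain, was found in 27 of 37 and 48 of 52 members with adenosine and in 19 of 24 and 5 of 5 members with control. In neutrophils, which lack a T cell receptor, the share with a Trac UMI was 0.0998% and 3.18% with adenosine and 0.253% and 0.272% with control. Tcf7, a transcription factor of naive and memory T cells, was found in 21 of 37 and 13 of 52 members with adenosine and in 14 of 24 and 5 of 5 members with control. So Trac marked most members, and the share with Tcf7 was lowest in adenosine 2. CD8 T cells held Trac in 985 of 1062 cells and Tcf7 in 234, so these genes do not mark CD4 T cells alone. Zbtb7b, a factor of the CD4 lineage, was found in 9 of 118 members and in 33 of 1062 CD8 T cells. Runx3, of the CD8 lineage, was found in 62 members and in 681 CD8 T cells. Cd40lg, given below, was found in 31 members and in no CD8 T cell. RNA of other lineages was present at low counts in many members. S100a8 was found in 32 of 37 and 50 of 52 members with adenosine and in 24 of 24 and 5 of 5 with control, and Igkc in 30 of 37 and 24 of 52 with adenosine and in 12 of 24 and 1 of 5 with control. CD8 T cells carried S100a8 in 73 of 77 and 886 of 898 cells with adenosine and in 71 of 71 and 13 of 16 with control. The myeloid gene Lyz2 was found in 57 of the 118 members and Tyrobp in 36, while the B cell gene Cd79a was found in 5 and the neutrophil surface gene Ly6g in 3. The part of this RNA in the results was not tested. Trdc, of gamma-delta T cells, was found in 1 and 3 cells with adenosine and in 1 and 0 cells with control. Ncr1, of natural killer cells, was found in 1 member, and Zbtb16, of natural killer T cells, in 1 member. The neutrophil gate held Cd4 in 0.0665% and 0.135% of its cells with adenosine and in 0.178% and 0.0302% with control.

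CD4 T cells were a larger share of the callus cells in both adenosine libraries than in either control library. The share was 0.418% (95% Wilson interval 0.303 to 0.575) and 0.593% (0.453 to 0.777) with adenosine, against 0.255% (0.171 to 0.379) and 0.0753% (0.0322 to 0.176) with control. The means were 0.505% ± 0.124 and 0.165% ± 0.127 (SD, n = 2 each), and the groups did not overlap. An exact two-sided permutation test gave p = 0.3333, the smallest value that 2 against 2 libraries allow. The difference of 0.340 percentage points lay between 0.251 and 0.430 when each library was left out in turn. Finding a member needs Cd4 and CD3 UMIs, and depth differed. The median over all cells kept was 3585 and 5082.5 UMIs with adenosine and 3948 and 3048 UMIs with control. The part of depth in these shares was not tested.

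The share among T cells showed another order. T cells here include the cells with neither a Cd4 nor a CD8 UMI. CD4 cells were 16.5% of the T cells in adenosine 1 and 4.92% in adenosine 2, against 13.0% in control 1 and 10.0% in control 2. CD8 T cells, the cytotoxic class, numbered 77 and 898 with adenosine and 71 and 16 with control. The ratio of CD4 to CD8 cells was 0.481 and 0.0579 with adenosine, against 0.338 and 0.313 with control. The mean log2 ratio was -2.58 with adenosine and -1.62 with control, and the exact permutation test gave p = 1. The low ratio belonged to adenosine 2: without that library the difference of the means turned to 0.56. All intervals on shares cover counting error only.

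**Figure D1:**
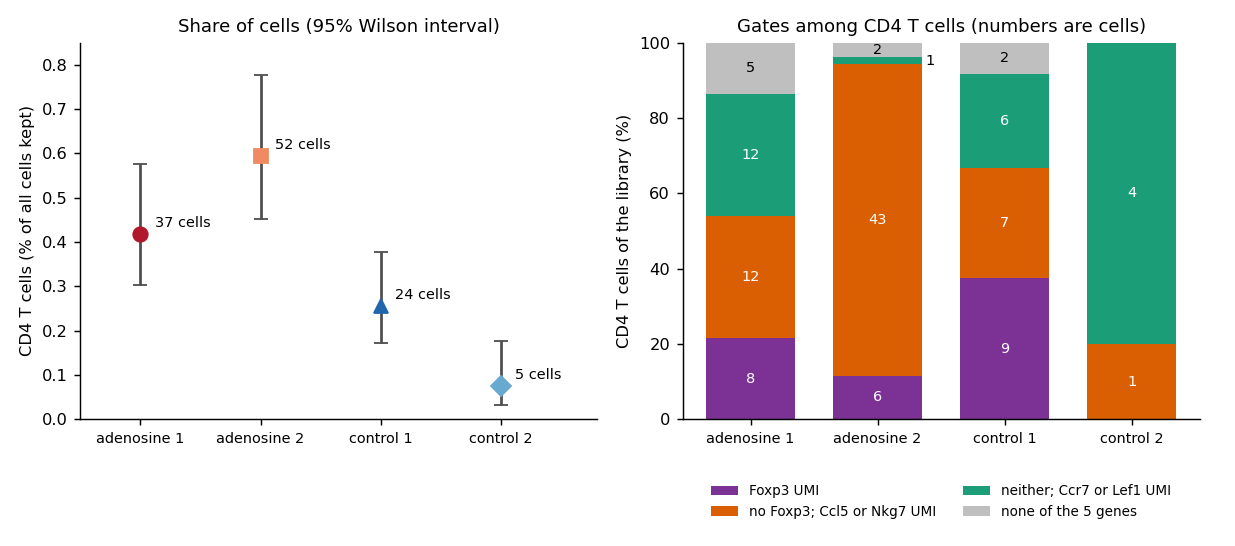
Left, non-dividing CD4 T cells as a percentage of all cells in each library, with 95% Wilson intervals; the adenosine libraries stood at 0.418% and 0.593%, above the control libraries at 0.255% and 0.0753%. Right, the same cells split by gate as a percentage of the members of each library, with numbers of cells; the effector gate held 43 of 52 members in adenosine 2.

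The members were split into 4 gates by their own UMIs. The Foxp3 gate held cells with a Foxp3 UMI. Of the others, the effector gate held cells with a UMI of Ccl5, a chemokine of effector T cells, or of Nkg7, a cytotoxic granule protein. Of those left, the Ccr7/Lef1 gate held cells with a UMI of the homing receptor Ccr7 or of the transcription factor Lef1, both known from naive cells. It is no set of naive cells, since in adenosine 1 Maf was found in 11 of its 12 cells and S100a4 in 7. Lef1 was also found in 9 of 12 and 28 of 43 cells of the effector gate with adenosine and in 6 of 7 and 0 of 1 with control. The rest met no gate and numbered 5 and 2 with adenosine and 2 and 0 with control. The effector gate held 32.4% and 82.7% of the members with adenosine, against 29.2% and 20.0% with control. The means were 57.6% ± 35.5 and 24.6% ± 6.48 (SD, n = 2 each), the groups did not overlap, and the exact permutation test gave p = 0.3333. After thinning every cell to 1500 UMIs the shares were 29.7% and 76.9% with adenosine and 25.0% and 0% with control. The difference was 7.85 percentage points without adenosine 2, against 33.0 with it, so its size rested on that library.

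The Ccr7/Lef1 gate had a lower mean with adenosine, 17.2% ± 21.6 against 52.5% ± 38.9 with control (SD, n = 2 each). It held 12 of 37 and 1 of 52 members with adenosine (32.4% and 1.92%), against 6 of 24 and 4 of 5 with control (25.0% and 80.0%). The groups overlapped and the exact permutation test gave p = 0.667. The Foxp3 gate held 8 of 37 and 6 of 52 members with adenosine (21.6%, interval 11.4 to 37.2, and 11.5%, interval 5.40 to 23). With control it held 9 of 24 (37.5%, interval 21.2 to 57.3) and 0 of 5 (interval 0 to 43.4). Taking 3 cells for a count of 0 allows up to 60% of cells with a Foxp3 UMI there. These shares overlapped between the groups, and the exact permutation test gave p = 1. All 4 heavy members lay in the Foxp3 gate. The few cells of control 2 leave its gate shares with wide intervals.

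The effector gate used Ccl5 and Nkg7, and both had a high background in adenosine 2. Ccl5 was found in 35.1% and 88.5% of the members with adenosine, against 20.8% and 20.0% with control. In neutrophils, taken here as the background, 2.54% and 50.4% of cells with adenosine had a Ccl5 UMI, against 4.98% and 1.30% with control, at a median of 3303 and 3335 UMIs per cell and 3608 and 3000 UMIs. The share in CD4 T cells of adenosine 2 thus lay above a background that was itself the highest of the 4 libraries. Nkg7 was found in 24.3% and 76.9% of the members with adenosine and in 29.2% and 0% with control, against 8.43% and 18.4% of neutrophils with adenosine and 7.53% and 0.664% with control.

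Genes with a lower background gave the same picture of adenosine 2. Gzmk, a granzyme of effector memory T cells, was found in 16.2% and 69.2% of the members with adenosine, against 8.33% and 0% with control. Its share in neutrophils was 0.0665% and 3.61% with adenosine and 0.0594% and 0.0604% with control. Eomes, a T-box transcription factor of effector and memory T cells, was found in 10.8% and 53.8% of the members with adenosine, against 8.33% and 0% with control. Neutrophils had Eomes in 0.116% and 0.632% of cells with adenosine and in 0.178% and 0.0302% with control. Each of the 2 genes was found in at least 53.8% of the members of adenosine 2 and in at most 16.2% of those of any other library.

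Both genes met in the same cells. Gzmk and Eomes were found together in 2 of 37 and 27 of 52 members with adenosine (5.41% and 51.9%, interval 38.7 to 64.9), against 2 of 24 and 0 of 5 with control (8.33% and 0%). In neutrophils they were found together in 2 of 6013 and 3 of 4430 cells with adenosine and in 0 of 6729 and 0 of 3314 cells with control. CD8 T cells also had their highest share in adenosine 2, with 26.0% and 65.1% with adenosine and 19.7% and 12.5% with control. In the effector gate Gzmk was found in 6 of 12 and 35 of 43 cells with adenosine and in 2 of 7 and 0 of 1 cells with control, and it was found in no cell of the Ccr7/Lef1 gate. Eomes was chosen for this account after its values were seen.

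**Figure D2:**
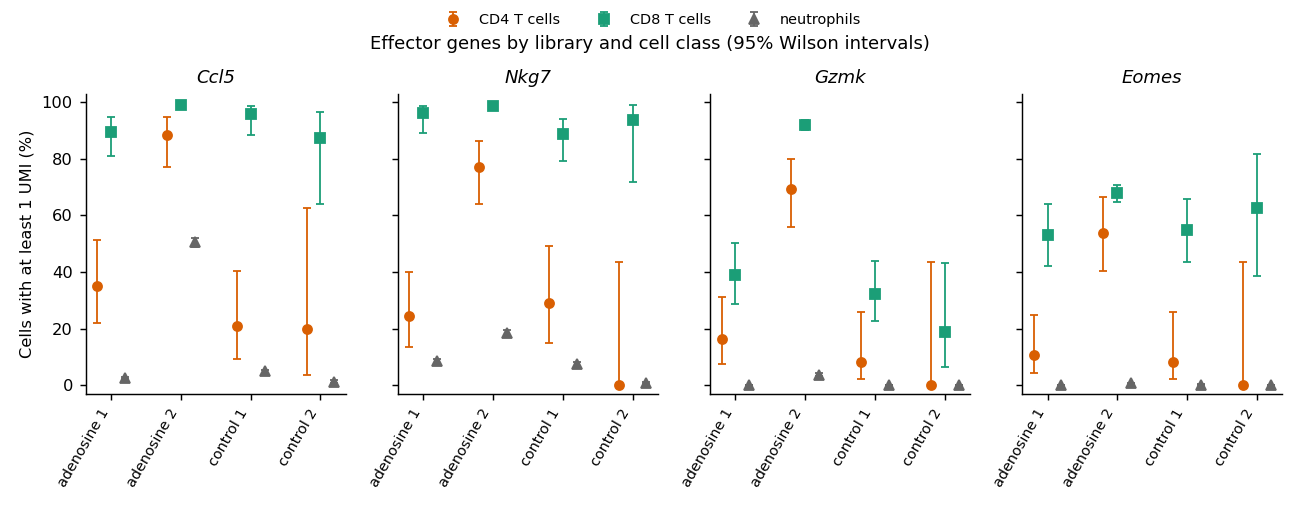
Percentage of cells with at least 1 UMI of Ccl5, Nkg7, Gzmk and Eomes in CD4 T cells, CD8 T cells and neutrophils of each library, with 95% Wilson intervals. In adenosine 2 the CD4 T cells stood at 88.5% for Ccl5, where neutrophils stood at 50.4%, and at 69.2% for Gzmk, where neutrophils stood at 3.61%.

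The promoters of Nkg7, Gzmk and Izumo1r are shown because the first pair mark the effector cells and the last marks CD4 against CD8 cells, below. Each run is the 250 bases upstream of the start in RefSeq, build GRCm38.p6, printed 5′ to 3′ on the strand of the gene. Capitals mark the T-box core GTGTGA, bound by factors such as EOMES, and the Runx core TGTGGT, each searched on both strands (as TCACAC and ACCACA). The motifs did not overlap. Among 32851 mouse promoters of this length, 12.3% hold the T-box letters and 14.0% the Runx letters.
Nkg7, chr7:43436888-43437137, plus strand: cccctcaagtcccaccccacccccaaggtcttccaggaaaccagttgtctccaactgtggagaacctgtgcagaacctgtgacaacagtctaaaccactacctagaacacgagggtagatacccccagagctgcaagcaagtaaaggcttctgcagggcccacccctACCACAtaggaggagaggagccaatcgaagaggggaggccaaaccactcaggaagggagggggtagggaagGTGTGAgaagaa
Gzmk, chr13:113180966-113181215, minus strand: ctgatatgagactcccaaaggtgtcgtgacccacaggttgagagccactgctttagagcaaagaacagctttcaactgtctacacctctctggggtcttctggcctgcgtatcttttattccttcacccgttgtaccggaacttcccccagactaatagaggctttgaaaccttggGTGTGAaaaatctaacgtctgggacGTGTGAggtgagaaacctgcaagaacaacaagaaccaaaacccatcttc
Izumo1r, chr9:14903768-14904017, minus strand: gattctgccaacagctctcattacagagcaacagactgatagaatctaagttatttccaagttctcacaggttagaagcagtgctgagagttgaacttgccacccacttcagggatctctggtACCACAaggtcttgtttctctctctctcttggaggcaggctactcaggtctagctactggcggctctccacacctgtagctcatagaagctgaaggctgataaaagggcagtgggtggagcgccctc
Nkg7 held 1 T-box and 1 Runx match, Gzmk 2 T-box matches and no Runx match, and Izumo1r 1 Runx match and no T-box match. These are matches of letters and not shown sites.

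The treatment comparison asked which genes differed between members of adenosine and control libraries. UMIs were summed over the members of each library, given as CPM (counts scaled by that sum), and compared by the quasi-likelihood method of edgeR. Of 3748 genes, 1 passed an adjusted p of 0.05, a share of 0.0267%, and none was higher with adenosine. DESeq2 called 0 and limma voom called 0, and 74 genes had an unadjusted p under 0.05 in edgeR. The called gene was Cxcl2, a neutrophil-attracting chemokine, with 0 and 0 UMIs in the adenosine libraries and 187 and 5 UMIs in the control libraries. This is at least 196-fold lower with adenosine, taking 3 counts over the adenosine libraries as the floor (adjusted p = 0.00126). Of the 187 UMIs in control 1, 186 came from 1 heavy cell that also held 105 Il1b UMIs and 1904 UMIs of S100a8 and S100a9. Without the heavy members no gene was called, and without control 1 Cxcl2 had too few UMIs to be tested. Leaving out adenosine 1, adenosine 2 or control 2 gave 15, 21 and 38 called genes, so the count depended on single libraries.

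Effector genes had high values in adenosine 2 and none passed the test. Ccl5 stood at 820.0 and 10827 CPM with adenosine and at 511 and 44.2 CPM with control. Its log2 ratio was 4.41 (SE 1.19, adjusted p 0.9999), and 1.53 without adenosine 2. Nkg7 stood at 103.1 and 1833 CPM with adenosine and at 139.8 and 0 CPM with control, with a log2 ratio of 3.50 (SE 1.06), and 0.22 without adenosine 2. Gzmk stood at 54.0 and 648 CPM with adenosine and at 54.7 and 0 CPM with control, with a log2 ratio of 3.24 (SE 1.01). For Nkg7 and Gzmk adenosine 1 was close to control 1, and adenosine 2 lay far above both. With no UMI in control 2, a level of up to 132 CPM (3 UMIs) is not excluded there. Pdia6, a protein disulfide isomerase, stood at 216 and 62.1 CPM with adenosine and at 18.2 and 0 CPM with control (log2 ratio 3.30). Rbm47, an RNA-binding protein, stood at 187 and 135 CPM with adenosine and at 36.5 and 0 CPM with control. In adenosine 1, 37 of the 44 Pdia6 UMIs and 32 of the 38 Rbm47 UMIs came from 1 heavy member. Without the heavy members Pdia6 in adenosine 1 stood at 49.7 CPM and Rbm47 at 42.6 CPM. With the doublet-marked members left out, which leaves control 2 with 4 members, edgeR called 9 genes, all higher with adenosine, among them Ccl5 (log2 ratio 3.82) and Nkg7 (2.97).

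Ifng and Havcr2, which were picked after their values were seen, were also highest in adenosine 2. Ifng, the cytokine interferon gamma, stood at 4.91 and 97.2 CPM with adenosine and at 12.2 and 0 CPM with control. Havcr2, the checkpoint receptor TIM-3, stood at 4.91 and 111 CPM with adenosine and at 6.08 and 0 CPM with control. Their lists gave no such lean. Of 5 tested genes of type 1 helper cells, which list Ifng, 1 had a positive and 4 a negative ratio (median -0.15). Of 6 tested checkpoint genes, 3 had a positive and 3 a negative ratio (median -0.05). Tbx21, the type 1 helper factor, was found in 6 of 12 and 5 of 43 effector gate cells with adenosine, against 3 of 7 and 0 of 1 with control. CD8 T cells of the same libraries had Ccl5 at 4218 and 24219 CPM with adenosine and at 4961 and 4652 CPM with control. Gzmk in CD8 T cells stood at 115 and 690.4 CPM with adenosine and at 129 and 31.9 CPM with control. Thus CD8 T cells of adenosine 2 also held the highest Ccl5 and Gzmk.

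No naive or homing gene was called between the treatments. Of the 12 tested members of that list, all 12 had a negative log2 ratio, with a median of -1.10 against 0.10 over all genes, and none was called. Ccr7 stood at 9.82 and 5.40 CPM with adenosine, against 54.7 and 221 CPM with control (log2 ratio -3.46, SE 1.17). These values do not overlap, yet they rest on few UMIs, since 1 UMI equals 4.91 and 2.70 CPM with adenosine and 6.08 and 44.2 CPM with control. Tcf7 stood at 324 and 70.2 CPM with adenosine and at 267 and 1016 CPM with control (log2 ratio -1.32, SE 0.76). S1pr1, the receptor for exit from tissue, stood at 137 and 43.2 CPM with adenosine, against 219 and 397 CPM with control. Bach2, a repressor of effector differentiation, stood at 275 and 140.4 CPM with adenosine, against 1161 and 1016 CPM with control (log2 ratio -2.15, SE 0.65). In control 1, 1 member held 82 of the 191 Bach2 UMIs, and without it the level was 720.6 CPM. Il7r, the interleukin 7 receptor, stood at 604 and 327 CPM with adenosine, against 669 and 1059.8 CPM with control. Without adenosine 2, 10 of the 12 members stayed negative, with a median of -0.63.

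Genes of MHC class I presentation leaned the other way, and again through adenosine 2. Of 15 tested members, 14 had a positive log2 ratio, with a median of 0.83, and none was called. H2-K1, a class I heavy chain, stood at 1635 and 3331 CPM with adenosine and at 2279 and 2473 CPM with control. B2m, the class I light chain, stood at 1267 and 1825 CPM with adenosine, against 1033 and 751 CPM with control. Psmb8, a subunit of the immunoproteasome, stood at 177 and 656 CPM with adenosine and at 194 and 177 CPM with control. Without adenosine 2 the list had 8 positive and 7 negative ratios and a median of 0.07.

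Other lists showed no call. Memory and activation genes had 13 positive and 5 negative ratios (median 0.59), and 5 and 14 without adenosine 2 (median -0.15). S100a4, a calcium-binding protein of memory T cells, stood at 398 and 2073 CPM with adenosine and at 662 and 44.2 CPM with control. T cell receptor signalling genes had 13 positive and 5 negative ratios (median 0.51), and regulatory T cell genes 6 and 5 (median 0.05). Ribosomal protein genes had 36 positive and 47 negative ratios (median -0.05), and 15 and 68 with scaling by library size alone, so no direction is given for them.

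Summed neutrophil markers in the members reached 2784 and 3419.9 CPM with adenosine and 18664 and 883 CPM with control. Summed B cell markers reached 35801 and 240.2 CPM with adenosine and 1471 and 132 CPM with control. The high value of adenosine 1 came mainly from 1 member of 59074 UMIs, of which 29735 were antibody UMIs, 22243 of them Igkc. Il1b, the cytokine interleukin 1 beta, stood at 83.5 and 24.3 CPM with adenosine and at 644 and 88.3 CPM with control. Its log2 ratio of -2.82 turned to 0.87 without the heavy members. The part of foreign RNA in the other gene values was not tested.

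Members were then set against the 1062 non-dividing CD8 T cells of the same libraries, in a fit with the library as a block. Of 4894 genes tested, 136 passed an adjusted p of 0.05 (2.78%), with 69 higher (1.41%) and 67 lower (1.37%) in CD4 T cells. The number was 66 without adenosine 1 and 87 without control 1. Of the 69 higher genes, 52 were higher in all 4 libraries, and of the 67 lower genes, 63 were lower in all 4. In control 2 some of these values lay under the CD4 floor of 132 CPM (3 UMIs), so its order is not certain for each gene. In CD4 T cells 4 of 8 tested regulatory genes and 2 of 7 tested follicular helper genes were called higher, and 7 of 13 tested cytotoxic genes were called lower. Of 7 tested genes of type 1 helper cells, 6 had a negative ratio (median -1.18), and the factor Tbx21 (-1.62) and the chemokine receptor Cxcr6 (-1.40) were called lower. Tbx21 lost its call without adenosine 2 or control 1. Cxcr6 lost its call without adenosine 1, adenosine 2 or control 2, and with scaling by library size alone. The median UMI count per cell was 3855 and 5654.5 with adenosine and 5330 and 4304 with control in CD4 T cells, against 6694 and 8566.5 with adenosine and 7189 and 7210.5 with control in CD8 T cells. The mRNA of a cell is not counted in full at this depth, so a gene without UMIs is below detection and not shown to be absent.

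Cd40lg, the gene of CD40 ligand, stood in CD4 T cells at 44.2 and 54.0 CPM with adenosine and at 72.9 and 132 CPM with control, 44 UMIs in all, against 0 UMIs in the CD8 T cells of every library. This is at least 180-fold higher in CD4 T cells, with 3 counts over all CD8 cells as the floor (adjusted p = 1.66e-04). Most CD8 UMIs came from adenosine 2, and without it the bound was 23.9-fold, from 24 against 0 UMIs. It was found in 8 of 37 and 14 of 52 members with adenosine and in 7 of 24 and 2 of 5 members with control, and in no neutrophil. In the Foxp3 gate no cell had a Cd40lg UMI.

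Izumo1r, which encodes folate receptor 4 of regulatory and helper T cells, stood in CD4 T cells at 128 and 146 CPM with adenosine and at 158 and 132 CPM with control. In CD8 T cells it stood at 15.0 and 23.8 CPM with adenosine and at 19.6 and 7.97 CPM with control. Its log2 ratio was 2.79 (SE 0.31, adjusted p = 1.66e-04), and the level was higher in CD4 T cells of every library. The 132 CPM of control 2 is 3 UMIs, the floor, so how even the levels were cannot be read from it. Ikzf2, which encodes the regulatory T cell factor Helios, stood in CD4 T cells at 2479.7 and 961 CPM with adenosine and at 2820.0 and 88.3 CPM with control. In CD8 T cells Ikzf2 stood at 423 and 64.0 CPM with adenosine and at 423 and 55.8 CPM with control. The log2 ratio was 2.85 (SE 0.33, adjusted p = 2.2e-04), and the level was higher in CD4 T cells of every library. The 88.3 CPM of Ikzf2 in control 2 lay under the floor of 132 CPM, so its order there cannot be read. Nrp1, neuropilin 1 of regulatory T cells, stood in CD4 T cells at 609 and 121 CPM with adenosine and at 650.3 and 44.2 CPM with control, against 77.0 and 90.1 CPM with adenosine and 15.7 and 31.9 CPM with control in CD8 T cells (log2 ratio 2.47, SE 0.60, adjusted p = 0.0478). Nrp1 did not pass without adenosine 1 (adjusted p = 0.350), without control 1 (0.181) or without control 2 (0.151).

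Further receptors and enzymes were higher in CD4 T cells. P2rx7, a channel opened by extracellular ATP, had a log2 ratio of 3.03 (SE 0.48, adjusted p = 0.00293). Without adenosine 2, P2rx7 and Cd40lg did not pass the filter on low counts and were not tested. Plcb4, a phospholipase C, stood in CD4 T cells at 137 and 64.8 CPM with adenosine and at 219 and 177 CPM with control (92 UMIs), against 0 and 1.59 CPM with adenosine and 0 and 0 CPM with control in CD8 T cells (13 UMIs). Ext1, an enzyme of heparan sulfate synthesis, stood in CD4 T cells at 579 and 162 CPM with adenosine and at 583 and 309 CPM with control, against 93.9 and 38.4 CPM with adenosine and 48.9 and 47.8 CPM with control in CD8 T cells (log2 ratio 2.63). Cd200r1, an inhibitory receptor, stood in CD4 T cells at 68.7 and 189 CPM with adenosine and at 122 and 44.2 CPM with control, against 37.6 and 22.9 CPM with adenosine and 17.6 and 0 CPM with control in CD8 T cells (log2 ratio 2.37). The level of each was higher in CD4 T cells of all 4 libraries. In control 2 the 44.2 CPM of Cd200r1 is 1 UMI, under the floor of 132 CPM, so its order there cannot be read. Cd200r1 was likewise not tested without adenosine 2, and P2rx7 was not tested without the heavy members.

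Other called genes named here came from the lists or were chosen after their values were seen. Maf, a factor of follicular helper and interleukin-10 producing cells, stood in CD4 T cells at 668 and 451 CPM with adenosine and at 310.0 and 88.3 CPM with control, against 107 and 124 CPM with adenosine and 54.8 and 15.9 CPM with control in CD8 T cells. Gata3, the factor of type 2 helper cells, stood in CD4 T cells at 133 and 113 CPM with adenosine and at 231 and 88.3 CPM with control, against 78.9 and 30.0 CPM with adenosine and 39.1 and 55.8 CPM with control in CD8 T cells. The log2 ratios were 2.25 for Maf and 1.59 for Gata3, and both were higher in all 4 libraries, though Gata3 did not pass without control 1 (adjusted p = 0.112). In control 2 the 88.3 CPM of both lay under the floor of 132 CPM, so the order there cannot be read. Cd5, a brake on receptor signalling, had a log2 ratio of 1.66, Slamf6 1.15, the death receptor Fas 1.52 and the oxygen sensor factor Hif1a 1.53. Adk, the adenosine kinase that turns adenosine into AMP, stood in CD4 T cells at 241 and 86.4 CPM with adenosine and at 322 and 353 CPM with control, against 62.0 and 37.3 CPM with adenosine and 108 and 47.8 CPM with control in CD8 T cells (log2 ratio 1.62). Fas and Hif1a did not pass without adenosine 1, control 1 or control 2, or were not tested, and Slamf6 lost its call when any 1 of the 4 libraries was left out.

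Cytotoxic genes were lower in CD4 T cells. Of 13 tested members of that list, 7 were called lower, none higher and all 13 had a negative log2 ratio, with a median of -2.36 against -0.03 over all genes. Klrd1, the CD94 chain of the inhibitory natural killer receptor, stood in CD4 T cells at 14.7 and 18.9 CPM with adenosine and at 12.2 and 0 CPM with control, against 279.9 and 845 CPM with adenosine and 245 and 661 CPM with control in CD8 T cells. Its log2 ratio was -5.13 (SE 0.37, adjusted p = 4.18e-06). It was found in 3 of 37 and 2 of 52 CD4 T cells with adenosine and in 1 of 24 and 0 of 5 with control, against 47 of 77 and 730 of 898 CD8 T cells with adenosine and 40 of 71 and 14 of 16 with control. Klrd1 thus stayed rare in the CD4 T cells of adenosine 2, where Gzmk and Ccl5 were common. Klrk1, the activating receptor NKG2D, had a log2 ratio of -3.82, and the pore-forming protein gene Prf1 of -3.10. Ccl5 had a log2 ratio of -2.79 (SE 0.52, adjusted p = 0.009), Gzmb of -2.40 and Nkg7 of -2.36. Klrc1, the NKG2A partner of CD94, stood in CD4 T cells at 0 and 2.70 CPM with adenosine and at 18.2 and 0 CPM with control, against 189.7 and 409 CPM with adenosine and 192 and 335 CPM with control in CD8 T cells. Ccl5 lost its call without adenosine 1 (adjusted p = 0.0549) and without control 2 (0.0539), and Nkg7 and Gzmb without adenosine 1, control 1 or control 2, each keeping its sign. Gzmb had 15 UMIs in 6 members and did not pass in edgeR with scaling by library size alone (adjusted p = 0.077). It was not tested without adenosine 2 or without the heavy members, and Prf1 was not tested without adenosine 2. Gzmk was lower in CD4 T cells of all 4 libraries and did not pass (log2 ratio -0.73, adjusted p = 0.234), and Eomes did not pass (-1.02, adjusted p = 0.318). In control 2 no CD4 T cell had a Gzmk UMI, and up to 132 CPM is not excluded, so its order there cannot be read.

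**Figure D3:**
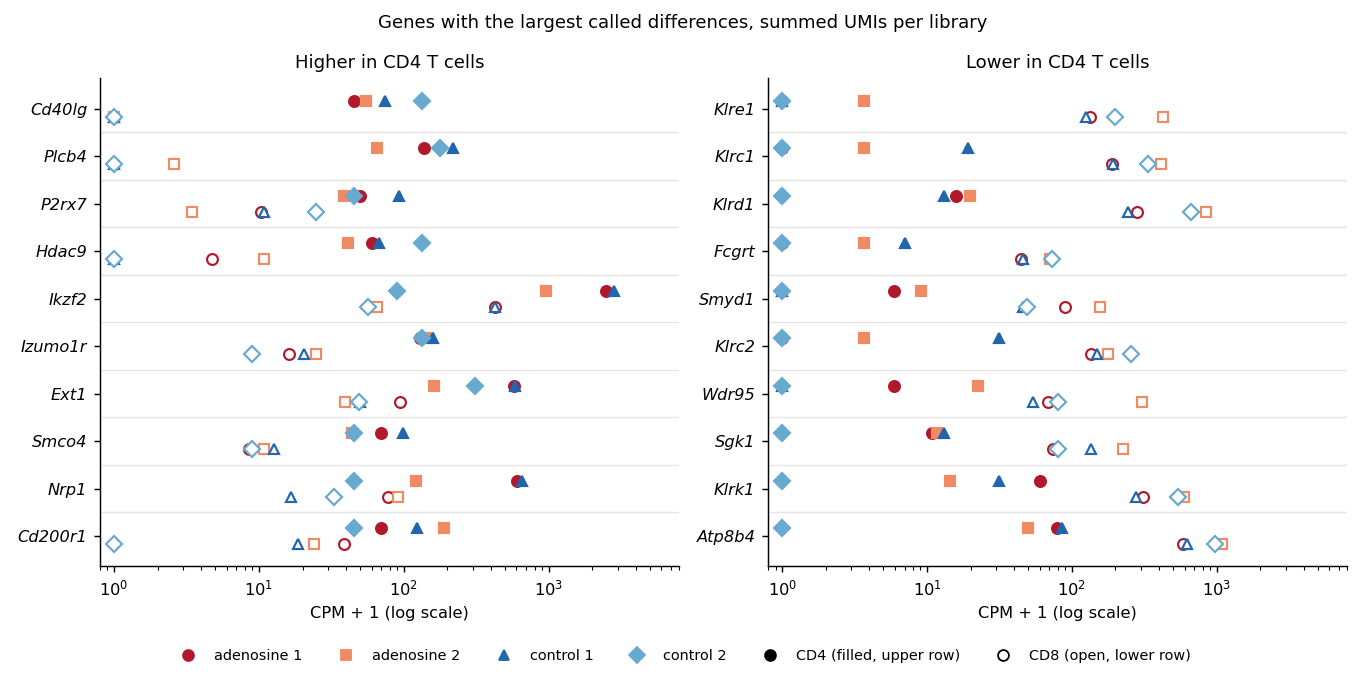
CPM plus 1 on a log axis for 20 genes named in the comparison of CD4 with CD8 T cells, 1 point per library; filled points above are CD4 T cells and open points below are CD8 T cells. Cd40lg lay at 44.2 to 132 CPM in CD4 T cells and at 0 in CD8 T cells, while Klrd1 lay at 0 to 18.9 CPM in CD4 T cells and at 245 to 845 CPM in CD8 T cells.

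Of 14 tested naive and homing genes, 3 were called lower and none higher in CD4 than in CD8 T cells. Of 8 tested survival genes, 5 had a positive and 3 a negative ratio (median 0.26), with Fas called higher and Bcl2 called lower. Bcl2, which protects resting lymphocytes from cell death, stood in CD4 T cells at 525 and 769 CPM with adenosine and at 681 and 221 CPM with control, against 2217 and 979.9 CPM with adenosine and 2578 and 996 CPM with control in CD8 T cells (log2 ratio -1.62). Satb1, a chromatin organiser of T cells, had a log2 ratio of -2.06 and was lower in 3 of 4 libraries. Bcl2 lost its call without adenosine 1, control 1 or control 2, and Satb1 without adenosine 1. Of the regulatory T cell list, 7 of 8 tested members had a positive ratio and 4 were called higher, with a median of 1.59. Tnfrsf18, the receptor GITR, was called at a log2 ratio of 1.43 (adjusted p = 0.0492) and higher in 3 of 4 libraries, and not called without adenosine 1, adenosine 2 or control 1. The checkpoint receptor Ctla4 was not called (1.76, adjusted p = 0.121). Of the ribosomal protein genes, 83 of 84 had a negative ratio and 4 were called lower, with a median of -0.68. None of these 4 calls held with scaling by library size alone (adjusted p = 0.132 to 0.167, list median -0.56) or without adenosine 1, control 1 or control 2.

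Whether the treatment change differed between CD4 and CD8 T cells was tested as an interaction. Of 6116 genes, 10 were called, all lower (0.164%). They were neutrophil and myeloid genes and chemokines such as Ngp, Lcn2, Cxcl2 and Ccl3. None was called without the heavy cells, which here were left out of both CD4 and CD8 T cells. Without control 1 the log2 values of Ccl3, Ngp and Lcn2 reversed.

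Members with a Foxp3 UMI were set against the other members in adenosine 1, adenosine 2 and control 1, with 8, 6 and 9 cells against 29, 46 and 15 cells. Of 1798 genes, 13 were called (0.723%), 6 higher (0.334%) and 7 lower (0.389%) in the Foxp3 gate. The higher genes included the neutrophil genes S100a8 (log2 ratio 3.15), S100a9 (3.10), Lyz2 (2.46) and Slpi (3.61). Of the S100a8 UMIs in the gate, 117 of 128 in adenosine 1, 209 of 231 in adenosine 2 and 959 of 1002 in control 1 came from heavy members. Without these cells 9 genes were called, of which 4 were shared, and S100a8 had a log2 ratio of -0.0016.

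Themis, Bcl2, Cd247 and Ms4a4b were lower in the Foxp3 gate with and without the heavy members. Of 18 tested receptor signalling genes 17 had a negative ratio and 1, Cd247, was called (median -0.69), and of 3 tested survival genes 2 had a positive ratio and only Bcl2 was called. These list counts and the median include the heavy members, so a general lowering of receptor signalling genes cannot be read from them. The CPM values of the gate include the heavy members, of which 2 in adenosine 1 held 62834 UMIs. The low CPM values of Themis and Bcl2 there thus rest on few UMIs in a sum swelled by these cells. Themis, a signalling adaptor of T cell selection, stood in the Foxp3 gate at 24.5 and 371 CPM with adenosine and at 213 CPM in control 1. In the other members it stood at 1506 and 2227 CPM with adenosine and at 1768 CPM in control 1. Its log2 ratio was -3.25 (SE 0.41, adjusted p = 0.00286), and -2.62 without the heavy members. Bcl2 stood in the Foxp3 gate at 36.8 and 106 CPM with adenosine and at 269 CPM in control 1, against 851 and 845 CPM with adenosine and 1169.9 CPM in control 1 in the other members (log2 ratio -2.71, adjusted p = 0.0088, and -2.59 without the heavy members). Cd247, the zeta chain of the T cell receptor complex, stood in the Foxp3 gate at 123 and 635 CPM with adenosine and at 369 CPM in control 1, against 1334 and 1515 CPM with adenosine and 1555 CPM in control 1 in the other members (log2 ratio -1.91, and -1.57 without the heavy members). Ms4a4b, a membrane protein of T cells, had a log2 ratio of -2.03, and -1.83 without the heavy members. Without adenosine 1, 2 genes were called and none of these 4 passed (adjusted p = 0.143 for Themis), and without adenosine 2 Ms4a4b did not pass (0.133). Without control 1, 43 genes were called. With the heavy members included, these 4 genes were lower in the Foxp3 gate of every library. The gate then did not overlap with the other members for any of them.

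With the heavy members included, none of the 8 tested regulatory T cell genes was called in the Foxp3 gate, and 7 had a positive ratio (median 1.12). Nrp1 and Izumo1r were each higher in the gate in 1 of 3 libraries. Ikzf2 was found in 8 of 8 and 6 of 6 cells of the gate with adenosine and in 9 of 9 in control 1, against 18 of 29 and 15 of 46 other members with adenosine and 8 of 15 in control 1. It stood in the gate at 2932 and 6511 CPM with adenosine and at 4030.5 CPM in control 1, against 2178 and 331 CPM with adenosine and 1383 CPM in control 1 in the other members. It did not pass with all members (log2 ratio 2.33, adjusted p = 0.0807) and was called without the heavy members (2.62). Tnfrsf4, the costimulatory receptor OX40, stood in the gate at 344 and 1085 CPM with adenosine and at 336 CPM in control 1, against 147 and 150.3 CPM with adenosine and 213 CPM in control 1 in the other members. It did not pass either (log2 ratio 1.95, adjusted p = 0.0675, and from 0.000438 to 0.631 over the alternatives) and was called without the heavy members (2.55). Tnfrsf18 (1.33) and Ctla4 (0.91) were not called.

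**Figure D4:**
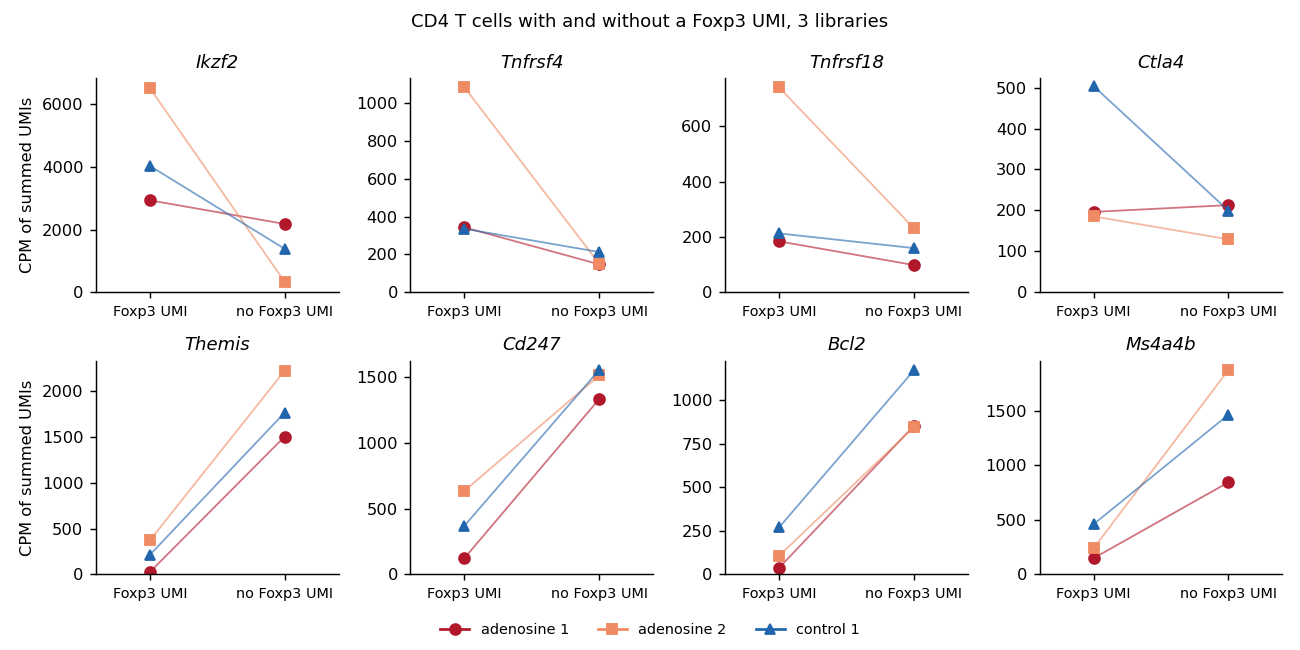
CPM of 8 genes in members with a Foxp3 UMI and in members without, 1 point per library of adenosine 1, adenosine 2 and control 1. The heavy members are included. Themis lay at 24.5 to 371 CPM with a Foxp3 UMI and at 1506 to 2227 CPM without, and Ikzf2 at 2932 to 6511 CPM with and at 331 to 2178 CPM without.

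The effector gate was set against the Ccr7/Lef1 gate in adenosine 1 and control 1, the libraries with at least 5 cells in both (12 against 12, and 7 against 6 cells). Of 981 genes, 3 were called (0.306%), 1 higher (0.102%) and 2 lower (0.204%) in the effector gate. Il18r1, a chain of the interleukin 18 receptor, stood in the effector gate at 607 CPM in adenosine 1 and 539 CPM in control 1, against 81.2 and 72.5 CPM in the Ccr7/Lef1 gate (log2 ratio 2.88, SE 0.52, adjusted p = 0.0385). Tnfsf8, the CD30 ligand, stood in the effector gate at 147 and 53.9 CPM, against 711 and 1704 CPM in the Ccr7/Lef1 gate (log2 ratio -3.25, adjusted p = 0.0291). Malt1, a protease of receptor signalling, stood in the effector gate at 147 and 162 CPM, against 914 and 979 CPM in the Ccr7/Lef1 gate (log2 ratio -2.57, adjusted p = 0.0291). In each case both libraries lay on the same side. DESeq2 called 0 genes here, scaling by library size alone called 0, and 65 genes had an unadjusted p under 0.05 in edgeR.

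Adenosine receptors were sparse in the members. Adora2a, the receptor for adenosine that T cells mainly use, was found in 2 of 37 and 11 of 52 cells with adenosine and in 1 of 24 and 2 of 5 cells with control. Its level was 9.82 and 45.9 CPM with adenosine and 6.08 and 88.3 CPM with control, and it did not differ detectably from CD8 T cells (log2 ratio -0.46, adjusted p = 0.72). The other receptors Adora1, Adora2b and Adora3 had 0 UMIs in the members. Entpd1, the CD39 enzyme that breaks down ATP, stood at 118 and 186 CPM with adenosine and at 243 and 88.3 CPM with control. Nt5e, the CD73 enzyme that makes adenosine from AMP, stood at 182 and 13.5 CPM with adenosine and at 139.8 and 88.3 CPM with control. Ada, the adenosine deaminase, had 1 and 1 UMIs with adenosine and 0 and 0 with control. No gene of this list was called between the treatments, and all 4 tested members had a negative log2 ratio (median -0.17).

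Of the cytokines that act on bone cells, RANK ligand was measurable. Tnfsf11 was found in 9 of 37 and 2 of 52 members with adenosine and in 7 of 24 and 0 of 5 members with control. It stood at 63.8 and 8.10 CPM with adenosine and at 85.1 and 0 CPM with control, against 13.2 and 0.856 CPM with adenosine and 5.87 and 0 CPM with control in CD8 T cells. The level was thus low in adenosine 2 in both classes, and the 0 of control 2 carries the same limit of 132 CPM in CD4 T cells. Tnf stood at 19.6 and 16.2 CPM with adenosine and at 24.3 and 44.2 CPM with control. Il17a and Il4 had 0 UMIs. Tox, a factor of chronically stimulated T cells, was found in 36 of 37 and 49 of 52 members with adenosine and in 21 of 24 and 4 of 5 members with control.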

How the data were processed

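Single-cell RNA was measured with a droplet 3' v2 kit in 4 libraries, 2 per treatment. Per the submitters' processing notes, the authors used bcl2fastq and Cell Ranger 7.0.0 with build mm10. The sources used here state neither the annotation nor how intronic reads and cell calling were handled. The authors deposited raw UMI counts, unscaled, for 32285 genes in 35274 barcodes that they called as cells. From these counts, cells with at least 200 genes and under 10% mitochondrial UMIs were kept (33698), and members were found by their own UMIs without clustering.

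UMIs were summed per library and class, so that the library is the replicate. Comparisons within libraries needed at least 5 cells of each class, and the treatment fit took every library with a member. After filterByExpr and TMM scaling, genes entered the quasi-likelihood test of edgeR 4.0.16 (R 4.3.3), with Benjamini-Hochberg adjustment over all tested genes and a threshold of 0.05. All tests are two-sided. Comparisons between classes or gates of the same library carried the library as a block. The alternatives used DESeq2 1.42.0, limma 3.58.1 voom, other scaling, no filter, other cell rules and each library left out. The scripts were tested on simulated data. Doublets were scored with Scrublet in scanpy 1.11.5 (Python 3.11.15), and the top 0.8% per 1000 barcodes were marked and kept; its own threshold marked between 0% and 1.95%. Neutrophils were cells with at least 20 UMIs of S100a8 and S100a9, at least 1 of Lyz2 and none of the CD3 chains. Shares carry 95% Wilson intervals, and the floor is 3 counts. The sums held 203656 and 370475 UMIs (adenosine) and 164540 and 22646 UMIs (control), so control 2 limits every comparison it enters.

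Genes were named by a rule. It takes called genes with at least 50 CPM in the higher group, the 10 of largest fold in each direction, filled to 8 with the lowest unadjusted p, plus up to 4 of the highest members and the defining members of each described list. Other named genes, such as Eomes, Havcr2, Prf1, Gzmb, Klrk1, Satb1, Cd5, Fas, Hif1a, S1pr1 and Psmb8, were chosen after their values were seen. Some genes are not reported here. The members and lists were chosen with earlier results of these data known.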

Additional observations from a re-analysis of the deposited data

Results flagged for a closer look

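The change with adenosine differed between CD4 and CD8 T cells for 10 genes by the interaction term of edgeR (adjusted p under 0.05), each with a lower change in CD4 T cells. On the log2 scale the difference was -13.26 for Cxcl2, -8.14 for Ccl9, -7.58 for Ccl3, -5.01 for Gm12840 and -4.36 for Ccl4. It was -3.63 for Ifitm6, -3.07 for Camp, -3.02 for Ngp, -2.92 for Ltf and -2.80 for Lcn2. In control 1, 1 member of 26051 UMIs held 1904 UMIs of S100a8 and S100a9, against 230 in the other members of that library, and 186 of the 187 Cxcl2 UMIs. None of the 10 genes was called without the heavy cells, which left out the 4 members and also the CD8 T cells above the same limit. The part of the members alone was not tested. Without control 1 the log2 values of Ccl3, Ifitm6, Camp, Ngp and Lcn2 reversed. None was called without the doublet-marked cells either, a fit on 3 libraries, since control 2 then held 4 members.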

How the results depend on the processing

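The treatment count of 1 gene was 1 with RLE scaling, library size alone, Cd3 at 3 or more UMIs and mitochondrial share under 5%. It was 31 with no filter on low counts, 3 with Cd3 at 1 or more UMIs, 9 without doublet calls, and 0 with DESeq2, with limma voom, without cells holding RNA of other types, without the heavy members and with Cd4 at 2 or more UMIs (the last pair chosen after seeing the data, as was library size alone); leaving out 1 library gave 1 to 38. With a replicate block it was 2 genes, Cxcl2 and Igkc. The labels do not say that the numbers pair the libraries; deviations of same-numbered libraries correlated at 0.166 over 3748 genes, with 2 pairs.

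The CD4 against CD8 count of 136 was 483 with no filter, 73 with mitochondrial share under 5% and 66 to 171 leaving out 1 library, and within 1.5 times under the others; of 136, 126 were shared without the heavy members and 129 with DESeq2. The interaction count of 10 was 26 with no filter, 0 with DESeq2, without doublet calls and without the heavy members, 5 with library size alone, 1 with Cd3 at 3 or more, 3 with mitochondrial share under 5%, 33 without cells with RNA of other types, 17 with Cd4 at 2 or more, and 0 to 14 leaving out 1 library; without doublet calls, without cells with RNA of other types and with Cd4 at 2 or more, control 2 held too few members, so the CD4 against CD8 and interaction fits used 3 libraries and the change of count cannot be told apart from the lost library. The Foxp3 gate count of 13 was 106 with no filter, 20 with DESeq2, 4 with Cd3 at 1 or more, 37 without cells with RNA of other types, 36 with Cd4 at 2 or more (2 libraries in place of 3), and 2 to 43 leaving out 1 library. The effector against Ccr7/Lef1 count of 3 was 19 with RLE, 11 with no filter, 0 with DESeq2 and library size alone, 21 with Cd3 at 1 or more, 6 without doublet calls, 21 with mitochondrial share under 5% and 17 without cells with RNA of other types. It could not be fitted with Cd3 at 3 or more or Cd4 at 2 or more, and leaving out a library leaves no residual degrees of freedom.

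The difference in the log2 CD4 to CD8 ratio, -0.96, ranged from -2.49 to 0.56 leaving out 1 library, reversed (0.56) without adenosine 2. The difference in the Foxp3 share, -2.17 percentage points, was 1.11 without doublet calls and -20.9 to 16.6 leaving out 1 library. The effector share difference of 33.0 was 7.85 to 58.1, and the Ccr7/Lef1 share difference of -35.3 was -62.8 to -7.82.

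Some log2 values reversed without control 1, so that leaving out 1 library gave ranges for treatment of -3.28 to 6.62 (Ebf1), -3.48 to 7.29 (Ngp), -3.10 to 6.79 (Zeb2) and -3.25 to 7.06 (Lcn2). For the interaction the ranges were -11.25 to 4.74 (Ccl3), -3.92 to 4.07 (Ifitm6), -3.66 to 5.53 (Camp), -3.19 to 3.86 (Ngp) and -2.97 to 6.38 (Lcn2). Without doublet calls the reversed values were Ngp 0.11 and Lcn2 0.28 (treatment) and Ccl3 1.94 (interaction). Without cells with RNA of other types they were Ngp 0.13 (treatment) and Ccl3 3.09, Camp 0.10, Ngp 0.29, Ltf 0.78 and Lcn2 0.88 (interaction). Without the heavy members they were Il1b 0.87, Ngp 0.26 and Lcn2 0.069 (treatment), Ccl3 3.02, Ngp 0.13, Ltf 0.046 and Lcn2 0.12 (interaction), and S100a8 -0.0016 and S100a9 -0.20 (Foxp3 gate). With Cd4 at 2 or more UMIs they were Il1b 2.24 and Ngp 0.23 (treatment) and Ccl3 3.44, Ccl4 0.89, Camp 0.28, Ngp 0.40 and Ltf 1.25 (interaction). Of the named genes in CD4 against CD8, 277 values kept their side and 9 became weaker. The causes were not tested. Few members, above all the 5 of control 2, limit every value.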

Other observations

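The senescence marker Cdkn2a, chosen after its values were seen, was found in 0 of 37 and 6 of 52 members with adenosine, at 0 and 37.8 CPM, and in no member with control. Siglech, a marker of plasmacytoid dendritic cells, stood at 105 CPM in adenosine 2 from 1 member.

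Genes of follicular helper cells were present at low level. Cxcr5, the receptor that guides T cells into B cell follicles, stood at 34.4 and 48.6 CPM with adenosine and at 48.6 and 44.2 CPM with control. Il21, the cytokine of these cells, stood at 14.7 and 27.0 CPM with adenosine and at 48.6 and 0 CPM with control. Against CD8 T cells, 6 of 7 tested genes of that list had a positive log2 ratio (median 1.06) and 2 were called higher in CD4 T cells. The chemokine receptor Cxcr3 stood at 68.7 and 165 CPM with adenosine and at 128 and 177 CPM with control, and Rora at 285 and 297 CPM with adenosine and at 559 and 132 CPM with control. Il10 stood at 14.7 and 32.4 CPM with adenosine and at 0 and 0 CPM with control, where 3 UMIs would be 18.2 and 132 CPM.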
